A study of Mus musculus with 24 samples.

Results

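Of 157305 regions formed by merging the ATAC-seq peaks of 8 mouse libraries, 10302 (6.55%) held a peak in every library and lay within 1 kb of an end of a protein-coding gene. They were 65.3% of the 15788 regions open in all 8 libraries. The other 5486 always open regions lay farther than 1 kb from any gene end and are called distal. Another 11293 regions lay at gene ends but held a peak in 1 to 7 libraries. The members were chosen by the presence of peaks, so their openness is a property of the choice and not a result. The share of regions at gene ends was 6.37% among regions open in 1 list, 23.2% in 7 lists and 65.3% in all 8.

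ATAC-seq marks DNA that a transposase can reach, and CUT&Tag for H3K27ac marks nucleosomes whose histone H3 is acetylated at lysine 27, as at active promoters and enhancers. The study set out to map enhancers of jaw and limb cartilage. All mice were wild type of strain C57BL/6. Meckel's cartilage (MC), the rod that shapes the lower jaw, and forelimb cartilage (FL) were dissected at embryonic day E14.5, with 3 ATAC-seq and 3 H3K27ac libraries each. Whole mandibular processes at E12.5, which hold several tissues, gave 2 ATAC-seq libraries. The titles and protocol give these 2 libraries that stage and assay, while their descriptions name another. The authors also deposited a combined list for each tissue and assay. The labels do not say whether replicates came from separate embryos, so p-values measure only the spread between these libraries.

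The core promoter, where RNA polymerase II starts a gene, is usually kept free of nucleosomes, and it stays accessible in most cell types when the gene is broadly used. Many such promoters are rich in CpG dinucleotides and carry short motifs for ubiquitous factors, such as the GC box of SP and KLF proteins and the CCAAT box of NF-Y. Genes for the shared machinery of the cell commonly have promoters of this kind, whereas genes of single cell types more often depend on distal enhancers.

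Promoter sequences of 8 members show this range. RefSeq promoter windows of assembly GRCm38.p6 (mm10) were matched for 17274 of 21631 protein-coding genes, and each stretch below runs from 180 bases before the start to 20 bases from the start on, 5′ to 3′ along the gene. Capitals mark matches to motifs on either strand. The GC box was searched as the letters GGGCGG. The box of NF-Y was searched as CCAAT, the CRE of CREB and ATF factors as TGACGTCA and the E-box of USF and MYC as CACGTG. The motifs of ETS factors, NRF1, YY1, ZNF143 and the TATA box were searched too and are not in these 8 stretches. No motif searched contains another. Polr2h (chr16:20717646-20717845, plus strand) encodes a subunit of RNA polymerases, Med19 (chr2:84678222-84678421, plus strand) a subunit of the Mediator complex, and Jun (chr4:95052203-95052402, minus strand) an AP-1 transcription factor. Gli3 (chr13:15463543-15463742, plus strand) encodes a transcription factor of hedgehog signalling and Col11a1 (chr3:114030360-114030559, plus strand) a collagen of cartilage fibrils. These 5 stand for members with H3K27ac in the combined lists of both tissues. Cadm2 (chr16:67620889-67621088, minus strand), a synaptic adhesion molecule, stands for members with H3K27ac in neither combined list. Clcn4 (chr7:7299538-7299737, minus strand), a chloride and proton exchanger, stands for members marked in MC alone, and AI987944 (chr7:41393360-41393559, minus strand) for members marked in FL alone.
Polr2h: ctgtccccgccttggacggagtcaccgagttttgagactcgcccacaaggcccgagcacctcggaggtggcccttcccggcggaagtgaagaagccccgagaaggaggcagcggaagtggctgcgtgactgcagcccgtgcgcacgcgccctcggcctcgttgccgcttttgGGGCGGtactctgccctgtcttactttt
Med19: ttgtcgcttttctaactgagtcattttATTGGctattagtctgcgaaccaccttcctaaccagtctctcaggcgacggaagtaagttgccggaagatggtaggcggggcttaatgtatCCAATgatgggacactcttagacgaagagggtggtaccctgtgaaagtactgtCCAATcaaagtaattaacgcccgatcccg
Jun: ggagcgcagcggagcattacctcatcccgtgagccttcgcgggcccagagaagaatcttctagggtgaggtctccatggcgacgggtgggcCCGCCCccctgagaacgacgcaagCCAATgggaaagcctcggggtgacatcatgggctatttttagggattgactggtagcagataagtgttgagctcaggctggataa
Gli3: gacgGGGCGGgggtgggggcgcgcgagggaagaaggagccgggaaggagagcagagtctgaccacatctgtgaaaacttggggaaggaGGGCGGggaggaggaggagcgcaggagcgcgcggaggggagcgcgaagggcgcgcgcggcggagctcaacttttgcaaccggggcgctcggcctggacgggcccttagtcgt
Col11a1: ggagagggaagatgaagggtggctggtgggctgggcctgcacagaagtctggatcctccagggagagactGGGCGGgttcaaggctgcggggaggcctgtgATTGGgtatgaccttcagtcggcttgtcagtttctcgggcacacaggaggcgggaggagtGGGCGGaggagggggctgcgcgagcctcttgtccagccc
Cadm2: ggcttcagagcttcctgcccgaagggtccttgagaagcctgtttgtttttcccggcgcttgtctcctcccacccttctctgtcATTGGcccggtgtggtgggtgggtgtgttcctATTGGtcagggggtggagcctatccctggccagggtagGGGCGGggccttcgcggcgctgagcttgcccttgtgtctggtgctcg
Clcn4: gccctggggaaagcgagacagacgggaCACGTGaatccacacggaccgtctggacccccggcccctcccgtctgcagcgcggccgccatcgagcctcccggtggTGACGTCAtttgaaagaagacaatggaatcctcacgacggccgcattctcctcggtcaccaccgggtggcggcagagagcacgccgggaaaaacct
AI987944: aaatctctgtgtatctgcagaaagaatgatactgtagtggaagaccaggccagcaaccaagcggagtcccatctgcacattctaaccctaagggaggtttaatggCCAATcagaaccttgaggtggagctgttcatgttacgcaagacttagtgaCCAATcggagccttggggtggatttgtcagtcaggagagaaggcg

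In the windows of 300 bases around the starts, the stretch of Gli3 came from a window with 71% GC and 39 CpG, and that of Med19 from a window with 45% GC and 12 CpG. The window of Clcn4 lies 1359 bp from the annotated start of the gene, while those of Polr2h, Med19, Gli3, Jun and AI987944 lie at it. The Med19 and AI987944 stretches hold CCAAT boxes and no GC box, that of Gli3 holds GC boxes and no CCAAT box, and that of Clcn4 holds a CRE and an E-box. Neither high GC content nor any 1 of these motifs was shared by all 8.

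Over all windows, the 8659 that overlapped a member had a median GC content of 62.3% and a median ratio of observed to expected CpG of 0.791. The 5387 windows with no ATAC region in any list had 44.7% and 0.164, and the 3228 windows with a region that was not a member lay between, at 57.3% and 0.515. A GC box was found in 70.6% of member windows, 46.9% of all windows and 8.50% of windows with no region. The ETS motif (CCGGAAGT) was in 8.70%, 5.34% and 0.947% in the same order, and the CRE in 3.80%, 2.36% and 0.613%. The E-box was in 10.6%, 8.01% and 3.73%, NRF1 in 2.29%, 1.35% and 0.149%, YY1 in 1.74%, 0.978% and 0.0371%, and ZNF143 in 0.774%, 0.446% and 0.0186%. The CCAAT box was at nearly the same share in each, 40.4%, 39.6% and 42.4%. The letters TATAAA of the TATA box went the other way, at 5.99% of member windows and 27.5% of windows with no region, against 13.4% of all windows. All motifs were searched on both strands, and a match describes the letters only. Windows that differ in GC content differ in the chance of such letters, and their part in these shares was not tested.

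The members centred on gene starts. Strand was known for genes with a promoter window, and 8057 members (78.2%) lay at a start, 292 (2.83%) at the far end of a gene and at no start, and 1953 (19.0%) at an end of genes of unknown strand only. Of the 17274 genes of known strand, 9015 (52.2%) had a member at the start and 1483 (8.59%) at the far end. Of those 1483 genes, 1158 (78.1%) shared that region with the start of some gene or with a gene of unknown strand. In 6332 members with a single gene and a known start, the highest peak summit of each list lay at a median of 12 to 51 bp into the gene. Between 61.7% and 72.1% of the summits fell within 250 bp of the start. Peaks covered the start itself in 85.6% to 90.9% of these members, the base 1 kb upstream in 8.64% to 13.3% and the base 1 kb into the gene in 35.3% to 44.5%. Cover was thus wider into the gene than before it in every list. Distances were taken from the annotated gene start, and 6904 of the 17274 genes have their promoter window elsewhere. The part of such genes in this lean was not tested.

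**Figure D1:**
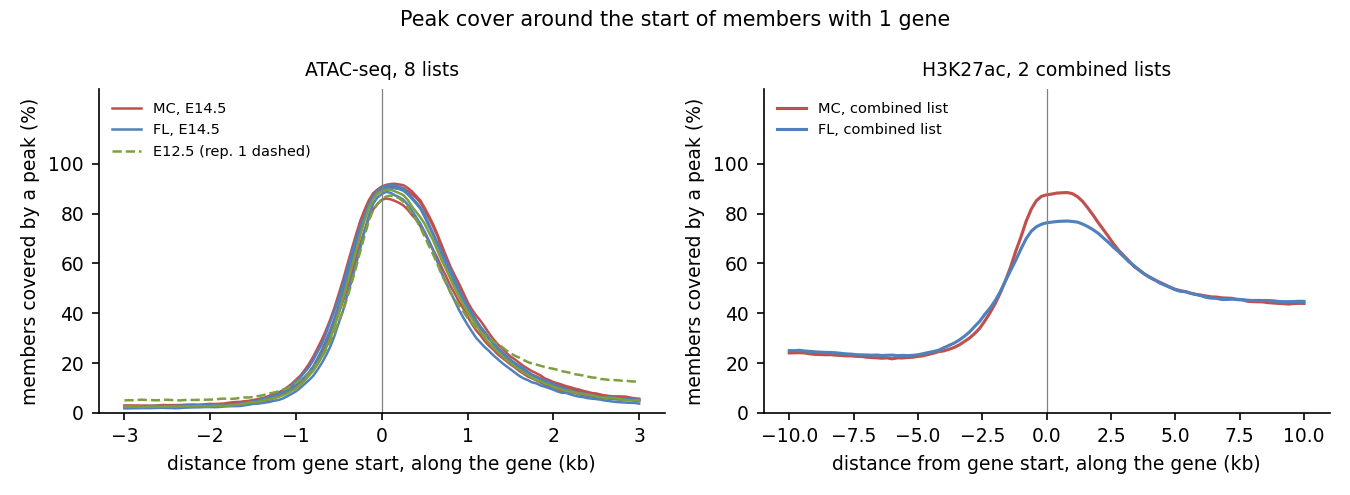
Share of the 6332 members with 1 gene that were covered by a peak (vertical axis, %), against distance from the gene start along the gene (horizontal axis, kb), for the 8 ATAC-seq lists (left, 1 line per list) and the authors' 2 combined H3K27ac lists (right). ATAC-seq cover is narrow and leans into the gene in all 8 lists, and H3K27ac spans several kb and is higher downstream than upstream. Distances are from the annotated gene start.

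Merged members were 433 to 26529 bp wide, with a median of 2094.5 bp, and percentiles of 1190 bp at 5% and 5213 bp at 95%. A merged width takes in the peaks of all lists, so the bases covered by a single list are smaller. Their mean over the 8 lists, called cover, had a median of 1392 bp, against 1094 bp in distal always open regions. The score percentile ranks a region by the authors' highest peak score within a list among the 15788 always open regions, with 100 as the highest. Its median over lists had a median of 59.2 in members and 29.1 in distal regions. The 292 members at far ends alone had a median percentile of 27.9, close to that of the distal regions. The 909 members that held starts on both strands had the highest of these, 73.5. Members are not independent of each other where genes share a region, and these values are descriptions.

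In single lists the median cover of a member was 1312, 1445 and 1512 bp in the MC replicates, 1255, 1423 and 1428 bp in FL, and 1277 and 1355 bp at E12.5. The groups overlap. The means were 1423 ± 101.8 bp for MC and 1369 ± 98.5 bp for FL, as mean ± SD with n = 3 (exact permutation, two-sided, p = 0.5, adjusted p = 0.88 over 11 comparisons). Members held 24.4%, 28.3% and 25.4% of the peaks of the MC lists and 23.4%, 18.3% and 26.3% of the FL lists. These shares were 26.0 ± 2.01% and 22.6 ± 4.04% (mean ± SD, n = 3; exact permutation, two-sided, p = 0.3, adjusted p = 0.88). With 3 libraries against 3, p cannot go below 0.1. The labels number the MC and FL libraries alike, and within the pairs of one number the median cover was higher in MC by 57, 22 and 84 bp, in 3 of 3 pairs (exact sign-flip permutation, two-sided, p = 0.25, the smallest that 3 pairs allow; adjusted p = 0.833 over 5 measures). The share of peaks was higher in MC in 2 of 3 pairs (exact sign-flip permutation, two-sided, p = 0.5). These paired values were added after seeing the data. Without FL replicate 1 the difference in median cover turned from 54.3 to -2.5 bp, and without FL replicate 2 the difference in shares of peaks moved from 3.401 to 1.22 percentage points.

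Among the 1000 peaks of highest score, members held 88.8%, 88.7% and 87.6% in MC, 88.8%, 89.2% and 89.0% in FL and 88.8% in E12.5 replicate 2. In E12.5 replicate 1 they held 49.0%. This library stood apart in other ways. Its score ranks over the members correlated with those of the other 7 lists at a Spearman rho of 0.488 to 0.622, while the other lists correlated with each other at 0.816 to 0.876. Those correlations are over 10302 members that share library and depth, and are given as descriptions. MC lists correlated with FL lists (0.816 to 0.876) as closely as with each other (0.816 to 0.866). E12.5 replicate 1 was also the list most often missing from gene-end regions open in exactly 7 lists, in 632 of 1375. Without it, 10871 regions met the rule.

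**Figure D2:**
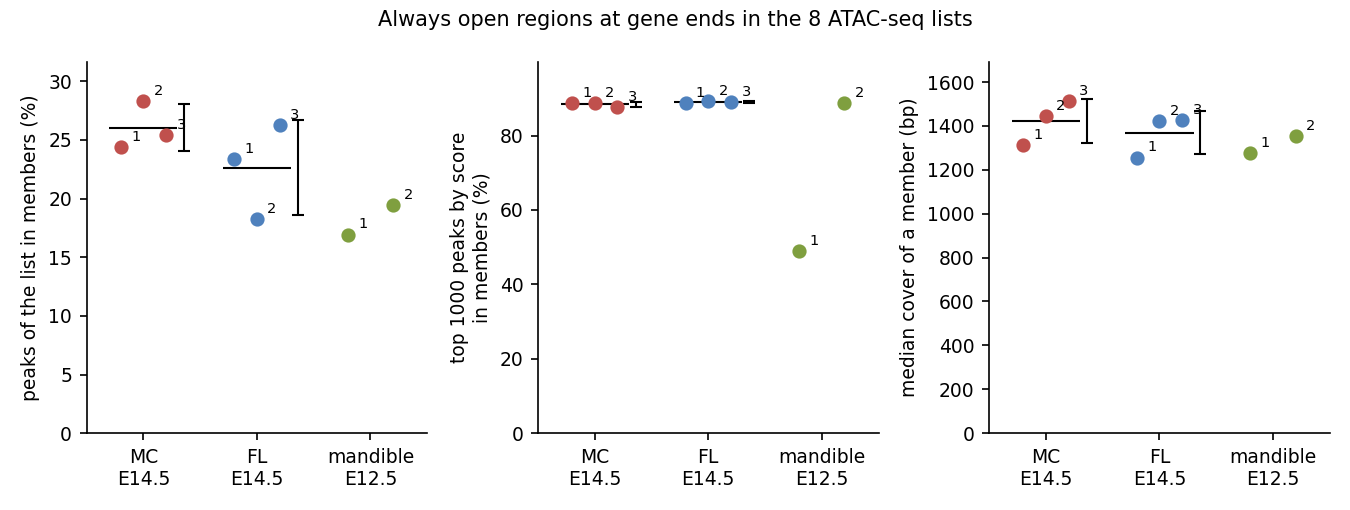
Share of each list's peaks that lay in members (left, %), share of its 1000 highest peaks that did (middle, %) and median bases of a member covered by peaks (right, bp), 1 point per library numbered by replicate. Lines and bars give the mean and SD of 3 libraries, and E12.5 replicate 1 lies at 49.0% in the middle panel where all other libraries lie between 87.6% and 89.2%.

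By the lowest percentile over the 8 lists, the 10 highest members were a pair of regions at Mroh2a and Hjurp on chromosome 1 and those at Crlf2, Gpr108, Jun, LOC108167694, Pcdh7, Fam72a, Spaca6 and Sp4. Jun had a percentile of at least 99.6 in every list and a cover of 7053, 6844 and 6608 bp in MC, 6847, 7115 and 6554 bp in FL, and 5873 and 6248 bp at E12.5. Pcdh7, a protocadherin, covered 6702, 6696 and 6682 bp in MC, 6741, 6227 and 6636 bp in FL, and 5777 and 6209 bp at E12.5. In both, the E14.5 lists overlapped and the E12.5 lists were the lowest. The widest member lay at chr1:88225277-88251805 near Mroh2a and covered 25899, 25762 and 24861 bp in MC, 22209, 21011 and 24079 bp in FL, and 26082 and 16979 bp at E12.5. Its neighbours were a member at the Ugt1a genes of glucuronosyltransferases (chr1:88211313-88224522) and another at Mroh2a and Hjurp (chr1:88252018-88270589). Peaks of this width were not typical, since 95% of members were under 5213 bp wide.

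At the other extreme, the members with the lowest single percentiles included those at Rcc1, Caskin1, Siah3 and Actr8. Rcc1, the exchange factor of the GTPase Ran, ranked at 11.7, 44.1 and 23.7 in MC, 0.0063, 25.6 and 8.16 in FL, and 19.1 and 19.7 at E12.5. Caskin1, a scaffold protein of neurons, ranked at 5.35, 25.3 and 4.77 in MC, 1.72, 0.0063 and 1.03 in FL, and 99.1 and 0.602 at E12.5. Its cover in E12.5 replicate 1 was 11332 bp, against 503 to 3856 bp in the other 7 lists. Members just inside the distance limit were at Mapk10 (999 bp), Cygb (986 bp) and Mfsd2b (982 bp), with median percentiles of 31.3, 27.6 and 19.4. Always open regions just outside it were nearest to Wdr88 (1003 bp), Gm5148 (1009 bp) and Eprs (1015 bp), with 42.9, 15.8 and 76.4.

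Most members overlapped an H3K27ac peak in the combined lists of both cartilages. By the authors' combined lists, 8206 members (79.7%) overlapped a peak in both MC and FL, 1124 (10.9%) in MC alone, 113 (1.10%) in FL alone and 859 (8.34%) in neither. Over all 157305 merged regions these shares were 46.2%, 9.26%, 9.19% and 35.3%, and over all always open regions 77.2%, 10.8%, 1.91% and 10.1%. Distal always open regions gave 72.5%, 10.5%, 3.45% and 13.5%. Gene-end regions open in 7 lists gave 56.3%, 17.5%, 4.22% and 22.0%. The combined lists are pooled, so these shares have no SD and no test. They cover 408 Mb in MC and 454 Mb in FL, and an overlap of 1 bp counted. Members were also wider than all merged regions, with medians of 2094.5 and 782 bp. The part of these widths in the shares was not tested. The lowest total signal of a peak was 16925 in the MC list and 25799 in the FL list. With MC peaks under the FL minimum left out, an alternative chosen after seeing the data, the shares of members became 75.5%, 5.08%, 5.23% and 14.2%. The excess of MC alone over FL alone was not present with 1 floor for both lists. It stayed with only the peaks above each list's own median total signal, at 15.7% and 2.97%. Whether equal totals mean equal signal in both lists is not known. The shared floor removes MC peaks only, so it can lower but not raise MC alone, and raise but not lower FL alone. Over all merged regions it gave 42.0%, 5.37%, 13.4% and 39.2% in the same order. Members were thus near equal in the 2 classes where all regions leaned to FL alone.

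**Figure D3:**
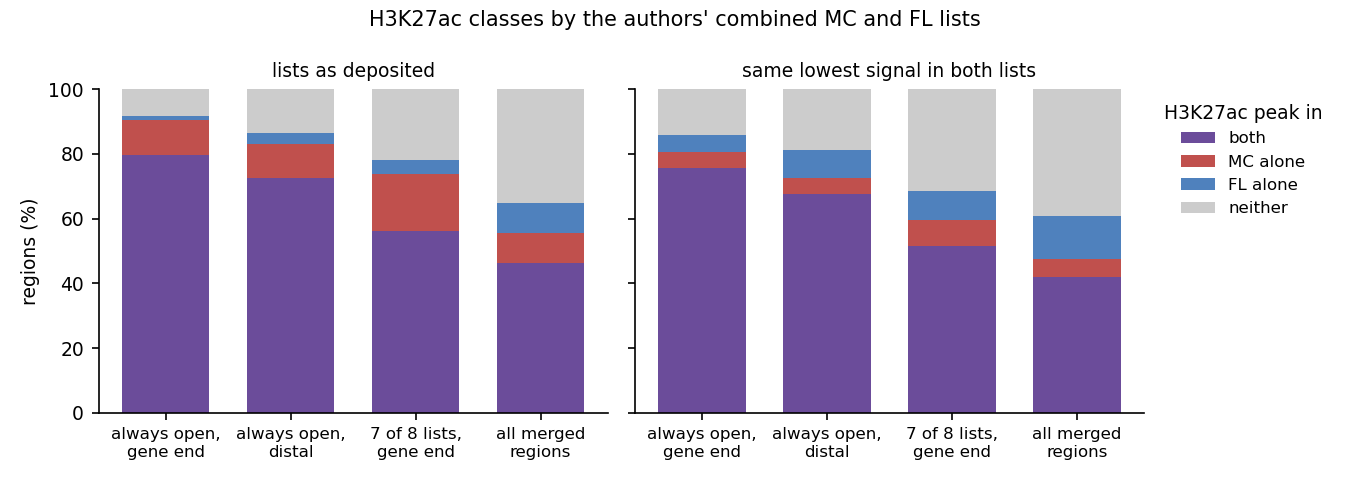
Share of regions (vertical axis, %) with an H3K27ac peak in both combined lists, in MC alone, in FL alone or in neither, for members, distal always open regions, gene-end regions open in 7 lists and all merged regions, with the lists as deposited (left) and with 1 lowest signal for both (right). Members have the tallest bar for both in each panel, and the bars for MC alone and FL alone are near equal at members in the right panel.

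H3K27ac peaks at members stood high in their lists by signal. Members touched 8547 of 47549 MC peaks (17.98%) and 7400 of 39914 FL peaks (18.5%). The highest signal of these peaks had a median percentile of 87.1 in MC and 86.5 in FL, against 40.8 and 42.6 for the remaining peaks. Peaks touching distal always open regions had 79.2 and 80.8. By total signal the order of these groups turned: the median percentile was 75.2 in MC and 70.3 in FL for peaks at members, and 79.0 and 79.6 for peaks at distal always open regions. Peaks touching members were wider than the remaining peaks. Their median widths were 7849 bp in MC and 9505.5 bp in FL, against 5268 and 7123 bp. The part of width in these percentiles was not tested. Around the starts of members with 1 gene, H3K27ac covered the start in 87.5% of them in MC and 76.3% in FL. At 5 kb upstream the shares were 22.7% and 23.3%, and at 5 kb into the gene 49.6% and 49.4%.

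Lists of single H3K27ac libraries marked far fewer members. The shares were 9.09%, 12.1% and 12.4% in MC and 13.3%, 11.1% and 10.8% in FL, which overlap. Their means were 11.2 ± 1.84% and 11.7 ± 1.36% (mean ± SD, n = 3; exact permutation, two-sided, p = 0.8, adjusted p = 0.88). Over all merged regions the same libraries marked 3.27% to 4.20%. The single lists hold 68477 to 75531 narrow peaks with a median width of 686 to 766 bp, against 5511 bp in the combined MC list and 7356 bp in the combined FL list. Members in both combined lists were marked in 11.5% to 14.2% of cases by single FL libraries, and members in neither combined list in 6.17% to 8.38%. The difference of -0.54 percentage points between MC and FL turned to 0.52 without MC replicate 1 and to 0.24 without FL replicate 1.

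Members without an H3K27ac peak in either combined list were weaker and smaller, though some ranked near the top. Those in neither list had a median cover of 1011 bp and a median percentile of 32.4, against 1474 bp and 64.1 for those in both. The strongest in neither list were at Cadm2, Lor, AW146154, Zfp317, Setmar, E2f7, Desi2 and Grm8. Cadm2 ranked at 95.9, 93.6 and 96.9 in MC, 95.2, 95.4 and 95.02 in FL, and 93.5 and 89.8 at E12.5, and overlapped no H3K27ac peak in either combined list. Lor, which encodes the loricrin of cornified skin, ranked at 96.5, 90.3 and 88.8 in MC, 98.0, 96.7 and 96.0 in FL, and 89.9 and 90.3 at E12.5. Neither gene fell below 88.8 in any list. The list also holds E2f7, a repressor of cell cycle genes, and Grm8, a glutamate receptor.

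Among the strongest members marked in MC alone were those at Clcn4, Msantd4, Ttc21b, Tsga10, Hspa2, Rhpn2 and Maml3. Clcn4 ranked at 99.3, 99.2 and 97.9 in MC and at 98.9, 96.6 and 98.7 in FL. The members named here were chosen for a high rank in every ATAC-seq list. Their ranks therefore cannot show whether openness separated the tissues. Ttc21b, a component of ciliary transport, ranked at 96.5, 95.7 and 96.3 in MC and 97.4, 96.6 and 95.2 in FL. Those marked in FL alone were at AI987944, Trim68, Slc9a3r1, Ccdc166, Cep78, Mterf2, Fam98c and Zfp975. AI987944, chosen in the same way, ranked at 95.5, 90.2 and 91.4 in MC and 89.0, 85.4 and 92.4 in FL.

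The promoter windows of the classes differed in composition. Windows of members marked in both tissues had a median observed to expected CpG ratio of 0.808, a GC box in 72.5% and the ETS motif in 9.47%. Windows of members marked in neither had 0.646, 57.4% and 3.63%. The CCAAT box was in 39.6% of the first and 47.9% of the second, and TATAAA in 5.60% and 9.31%. Among the stretches printed, that of Cadm2 has 2 CCAAT boxes and 1 GC box, and that of Polr2h has a GC box that begins 8 bases before the start.

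Of 21631 protein-coding genes, 11605 (53.6%) had a member at an end, and 15977 (73.9%) had an ATAC region of any kind there. By H3K27ac at their members, 9477 of the 11605 genes were marked in both tissues, 1151 in MC alone, 122 in FL alone and 855 in neither. With 1 signal floor for both tissues these counts were 9032, 539, 567 and 1467. Genes were then grouped by lists of known function, and each count is read against that 53.6%. The lists were written with earlier results of these data known, so their counts are descriptions.

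Genes of the shared cell machinery mostly had a member. In 13 lists of such genes, 398 of 453 genes (87.9%) did, and 374 of the 398 were marked in both tissues, 18 in MC alone, 3 in FL alone and 3 in neither. Those last 3 were Mrpl42, Med6 and Gins1. With 1 signal floor the counts were 364 in both, 6 in MC alone, 13 in FL alone and 15 in neither. All 18 chaperonin and heat shock genes had a member marked in both tissues, with a median percentile of 83.2. Cytosolic ribosomal proteins had one in 69 of 76 genes, all marked in both, with a median percentile of 54.9 and a median cover of 1174 bp. Proteasome subunits reached 29 of 31, cell cycle genes 25 of 26, tRNA synthetases 18 of 20 and respiratory complex I subunits 29 of 36. Presence was thus common to the lists, while the score rank was not high in all of them: the median over all members was 59.2.

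The strongest member of each of these lists lay at Rpl7, Mrpl40, Psmd8, Ndufs7, Polr2h, Med19, U2af2, Lars, Hspa8, Mcm4, Cdk6, Slc2a1 and Sec23a. Rpl7, a protein of the large ribosomal subunit, covered 3091, 3051 and 2938 bp in MC, 3046, 3556 and 3092 bp in FL, and 2963 and 3087 bp at E12.5. Polr2h shares its member with Clcn2 and ranked at 96.7, 99.5 and 99.3 in MC, 97.2, 99.2 and 99.2 in FL, and 96.9 and 98.7 at E12.5. Med19 ranked at 92.3, 92.4 and 94.4 in MC, 93.6, 93.3 and 96.5 in FL, and 89.3 and 93.0 at E12.5. In none of the 3 did the MC and FL lists separate. Each was chosen for a high rank in every ATAC-seq library, which favours such overlap. In the promoter windows of 316 genes of these lists with a member, the ETS motif was in 16.5%, and in those of 46 ribosomal protein genes in 19.6%, against 8.70% of all member windows. These genes share functions, not samples, and no test was made.

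Most listed cartilage genes had a member, which by the rule is open in both cartilages and in the mandible. Of 26 genes of cartilage matrix and its regulators, 19 had a member, and all 19 were marked by H3K27ac in both tissues, also with 1 signal floor. The median cover of these members was 2073 bp, above the 1392 bp of all members, while their median percentile of 39.7 was below 59.2. Sox9, the transcription factor that directs chondrocyte fate, had a member at chr11:112780850-112785660 that covered 3996, 3051 and 2890 bp in MC, 3479, 3158 and 3139 bp in FL, and 3201 and 2609 bp at E12.5. Col2a1, the main collagen of cartilage, had one at chr15:98001093-98006360 that covered 3310, 4287 and 4130 bp in MC, 3366, 3698 and 3506 bp in FL, and 4020 and 3175 bp at E12.5. In both genes the 3 groups overlap. Of the common reference genes, Actb ranked between 74.1 and 97.9 and Gapdh between 48.9 and 98.7.

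Other cartilage members ranked low in single lists. Acan, the large proteoglycan of cartilage, ranked at 12.7, 17.4 and 17.0 in MC, 39.0, 18.7 and 1.79 in FL, and 40.05 and 12.1 at E12.5. Col11a1 was the highest of the list by its lowest percentile and ranked at 97.6, 73.0 and 98.9 in MC, 88.9, 70.6 and 98.1 in FL, and 75.8 and 79.2 at E12.5. Sox6, which acts with Sox5 beside Sox9, ranked at 61.0, 60.8 and 42.7 in MC, 57.0, 48.6 and 38.2 in FL, and 33.9 and 33.4 at E12.5. The E12.5 lists were below all E14.5 lists at Sox6. The 7 cartilage genes with no member were Col9a1, Matn1, Prg4, Wwp2, Gdf5, Cytl1 and Ucma, and each had a region at an end in some lists.

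Of 18 genes of hypertrophy and osteoblasts, 5 had a member. Runx2, the regulator of bone formation, had none: its gene ends held 2 regions, each with a peak in 1 list. Dlx5 was marked in both tissues and covered 3476, 2911 and 2595 bp in MC, 1112, 1399 and 2014 bp in FL, and 2916 and 2058 bp at E12.5. All MC lists lay above all FL lists there. The highest members of this list were at Col1a2 and Col1a1, the chains of type I collagen, and Sp7. Col1a1 ranked at 44.8, 60.5 and 57.7 in MC, 43.5, 43.1 and 65.3 in FL, and 91.7 and 35.6 at E12.5. Sp7, the osteoblast factor osterix, and Dlx6 were marked in MC alone. Sp7 nevertheless ranked at 29.9, 31.2 and 31.7 in MC and 28.6, 33.8 and 32.4 in FL.

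Genes that pattern the jaw and the limb were counted next. Of 30 genes of the mandibular arch, 20 (66.7%) had a member: 9 were marked in both tissues and 10 in MC alone. The 10 were Dlx1, Dlx2, Lhx6, Lhx8, Msx1, Msx2, Alx1, Satb1, Foxf1 and Foxf2. With 1 signal floor, 7 of them stayed in MC alone, and Lhx6, Satb1 and Foxf1 moved to neither. Of 22 genes of limb patterning, 12 (54.5%) had a member, near the 53.6% of all genes: 5 were marked in both tissues, Tbx18 in FL alone and 6 in MC alone, among them Fgf10, Sall1, Meis1, Meis2 and Emx2. With 1 signal floor, 4 were in both, 5 in MC alone, Tbx18 and Grem1 in FL alone and Fgf10 in neither. Of 39 Hox genes only Hoxd1 had a member, and it ranked between 0.114 and 7.21 in the 8 lists.

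By lowest percentile, Six2 and Twist1 were the highest members of the mandibular list, and Gli3 was the highest of the limb list. Twist1, a helix-loop-helix factor of mesenchyme, ranked at 47.8, 79.2 and 91.1 in MC, 94.2, 87.7 and 82 in FL, and 73.8 and 69.7 at E12.5. Dlx2, a homeobox gene of the jaw, ranked at 31.9, 59.7 and 59.1 in MC, 3.13, 12.3 and 0.779 in FL, and 77.1 and 47.4 at E12.5. Its neighbour Dlx1 ranked at 82.6, 55.3 and 51.3 in MC, 33.8, 16.3 and 10.1 in FL, and 84.5 and 66.7 at E12.5. In both genes all MC and all E12.5 lists lay above all FL lists. Meis1, a partner of Hox proteins, ranked at 70.05, 53.7 and 42.9 in MC and 94.5, 69.98 and 83.3 in FL, which overlap by a narrow margin, and its H3K27ac class was MC alone. Tbx18, a T-box factor, ranked at 46.4, 27.7 and 65.2 in MC and 82.7, 74.9 and 56.0 in FL, with overlap. Gli3 ranked at 95.6, 93.4 and 98.9 in MC, 98.2, 97.6 and 99.2 in FL, and 92.6 and 98.8 at E12.5. Hand2 ranked at 17.2, 5.55 and 13.7 in MC, 33.1, 9.29 and 19.5 in FL, and 10.2 and 12.9 at E12.5. Shox2, a homeobox gene of the proximal limb, ranked at 44.1, 4.14 and 20.2 in MC, 78.7, 14.2 and 68.2 in FL, and 72.3 and 47.9 at E12.5. Pitx1 and Tbx5 had regions at their ends in 3 or 4 lists and no member.

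**Figure D4:**
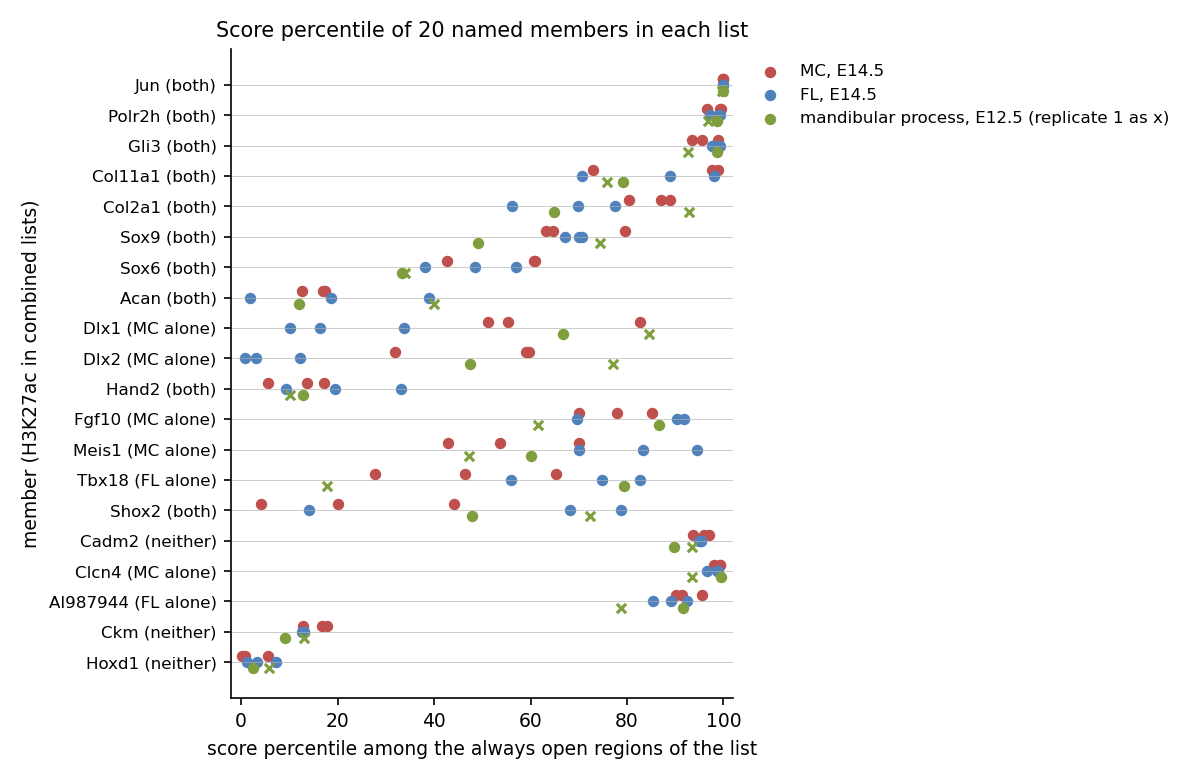
Score percentile (horizontal axis, 100 is highest) of 20 named members in each ATAC-seq list, with the class by the combined H3K27ac lists in brackets. Polr2h, Gli3, Cadm2 and Clcn4 stay above 89 in every list, and at Dlx1 and Dlx2 the MC and E12.5 points lie to the right of all FL points.

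In 6 lists of genes of other cell types, 24 of 108 (22.2%) had a member, below the 53.6% of all genes, and 8 of the 24 were marked in neither tissue: Actn2, Ckm, Syn1, Snap25, Nefl, Nefm, Isl1 and Esrp1. With 1 signal floor, 11 of the 24 were in neither. Of 19 defining markers of muscle, neurons, Schwann cells, epithelium, endothelium and blood, Kdr and Spi1 had a member, and 17 did not. Of 6 defining cartilage markers 5 did, and Matn1 did not. Ckm, the muscle creatine kinase, ranked at 12.9, 16.8 and 17.9 in MC, 12.54, 13.0 and 13.1 in FL, and 13.1 and 9.03 at E12.5. Actn2, a muscle actinin, ranked higher, at 77.3, 49.8 and 73.3 in MC, 74.2, 61.8 and 72.2 in FL, and 77.3 and 74.3 at E12.5. By lowest percentile, the highest members of the other lists were at Elavl4 of neurons, Esrp2 of epithelium, Flt1 of endothelium, Klf1 of blood and Apoa1 of liver. Fewer cells of a type and less signal per cell cannot be told apart in these tissues. Olfactory receptors had a member in 1 of 1110 genes, and vomeronasal receptors in 3 of 353. Genes named Zfp and a number, many of them KRAB zinc finger genes, had one in 291 of 397, with 41 marked in neither tissue and, with 1 signal floor, 62.

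**Figure D5:**
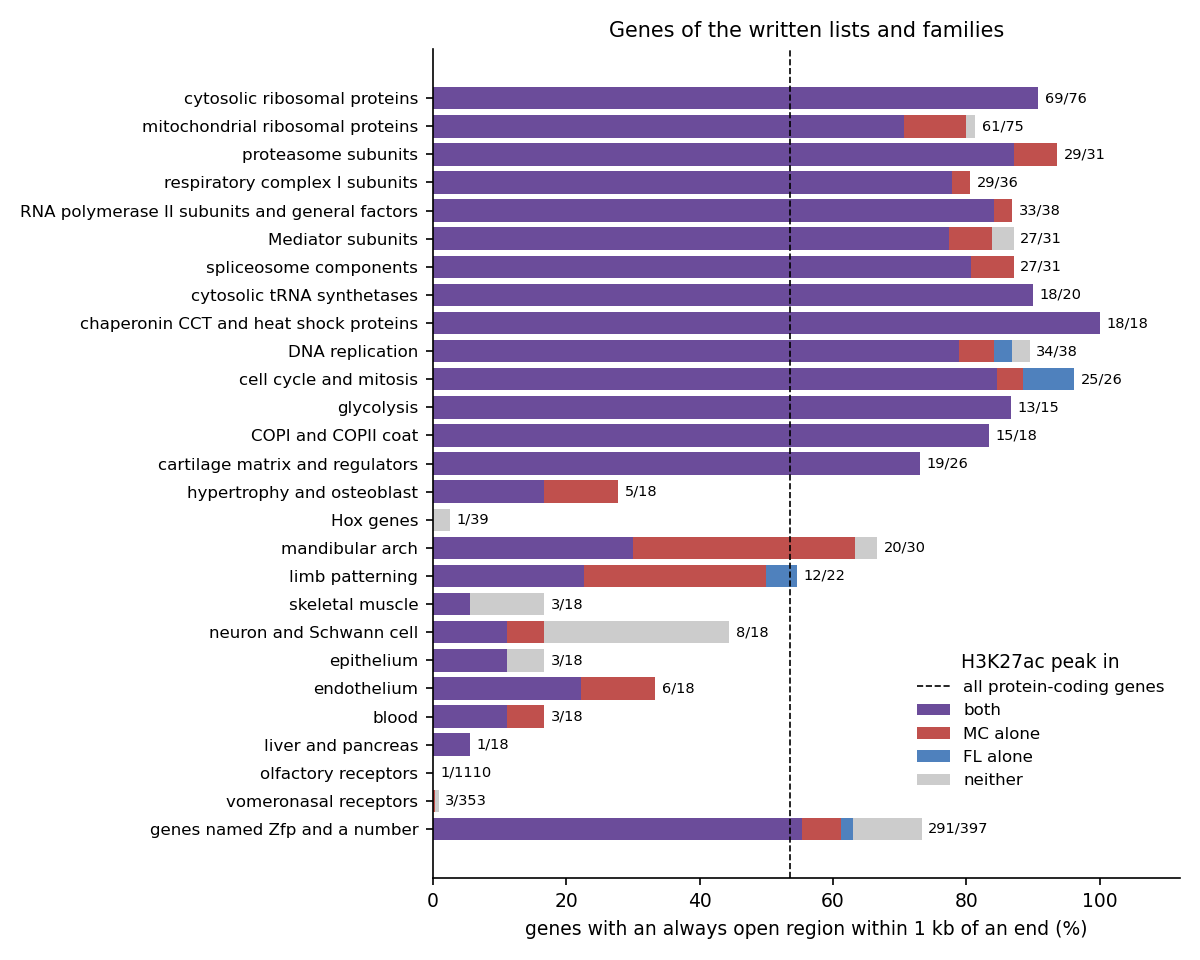
Share of the genes of each list or family with a member (horizontal axis, %), coloured by H3K27ac at those members, with counts beside the bars. The dashed line is the 53.6% of all protein-coding genes. All 13 lists of shared machinery and the cartilage and mandibular lists lie above it, and the limb list (54.5%) lies near it. The list of hypertrophy and osteoblasts (27.8%), the Hox genes (2.56%) and the lists of other cell types lie below.

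The X chromosome differed from the autosomes by description. A member was found at 308 of 966 X genes (31.9%), against 45.4% to 64.1% on the autosomes. Of the 281 X members, 21.0% were marked in neither tissue, against 4.67% to 10.96% on the autosomes.

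Members were then compared between tissues and stages in cover and in score rank. limma was fitted over all 15788 always open regions, with p-values adjusted over all of them, to log2 cover centred on the median of each list and to ranks of the score on a normal scale, where differences are in SD units. Between MC and FL, 0 members passed an adjusted p of 0.05 for cover and 0 for score rank, as over all always open regions (0%). An unadjusted p under 0.05 was reached by 379 members (3.68%) for cover, against 4.73% of all always open regions, and by 328 (3.18%) for score rank, against 4.93%. Fitted to the MC and FL libraries alone, these counts were 624 (6.06%, against 7.47% of all) and 605 (5.87%, against 7.73% of all), with 0 past the adjusted threshold. All 3 MC lists lay above all 3 FL lists in cover at 777 members, and this held for 8.15% of all always open regions. The FL lists lay above the MC lists at 361 members, against 3.75% of all. For score rank these were 606 members, against 6.25% of all, and 609 members, against 6.31% of all. In either direction together, 11.05% of members separated in cover and 11.8% in score rank, below the 11.9% and 12.6% of all always open regions. Of the members with an unadjusted limma p under 0.05 for cover, 208 were higher in MC and 171 lower. Without centring these were 293 and 96, so the lean toward MC was smaller with the lists centred. The part of list-wide peak width in the counts of separated members was not tested. Simulated data were given independent normal noise at the residual spread of each region. In them limma recovered, for MC against FL, 65.0% of regions planted at a log2 size of 2 in cover and 26.0% at 1. For score rank it recovered 58.0% at 2 SD units and 3.00% at 1, so smaller differences could be missed. The simulation held no library that stood apart and no shared deviation of same-numbered libraries.

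The following differences between MC and FL did not pass, and are examples from the members of smallest p. Dlx2 had the smallest p toward MC in score rank, with a difference of 1.82 ± 0.38 SD units (SE; limma adjusted p = 0.466). H2-D1, a class I histocompatibility gene marked in MC alone, was among the 5 smallest p toward MC in both measures. It covered 2059, 1090 and 2011 bp in MC and 269, 569 and 588 bp in FL, a log2 difference of 1.82 ± 0.35 (SE; limma adjusted p = 0.980). The region at Gm3336 covered 4477, 7831 and 6073 bp in MC and 500, 899 and 1663 bp in FL, a log2 difference of 2.65 ± 0.46 (SE; limma adjusted p = 0.980), and was marked in both tissues. Id1, an inhibitor of helix-loop-helix factors, ranked at 95.2, 94.3 and 90.7 in MC and 68.4, 76.0 and 67.2 in FL. Toward FL, Glra3, a glycine receptor subunit, ranked at 6.09, 4.43 and 2.46 in MC and 26.2, 21.7 and 26.5 in FL (difference -1.06 ± 0.23 SD units, SE; limma adjusted p = 0.522). Lhx9, a LIM homeobox gene, ranked at 9.15, 2.33 and 11.1 in MC and 42.0, 36.7 and 46.5 in FL. In cover, Rprm had 833, 796 and 1262 bp in MC and 1776, 1942 and 2177 bp in FL. Groups did not overlap at these 7 members, which were picked for that difference. The H3K27ac class did not always go with the direction. Nrtn, among the 5 smallest p toward MC in cover, was marked in FL alone. Vav3, among the 5 smallest p toward FL in score rank, was marked in MC alone.

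Between E14.5 MC and the E12.5 mandibular process, 0 members passed in cover or in score rank by the same fit (0% of all always open regions). An unadjusted p under 0.05 was reached by 471 members (4.57%) for cover, against 6.05% of all always open regions, and by 710 (6.89%) for score rank, against 9.18%. One of the 2 E12.5 libraries, replicate 1, stood apart from all others. Without E12.5 replicate 2, so that replicate 1 alone was the E12.5 group and was assumed to vary like the others, 254 members passed with higher ranks in MC and 444 with lower ranks. Without E12.5 replicate 1, 0 passed. The members with an unadjusted p under 0.05 numbered 424 in cover and 556 in score rank without replicate 1, and 1848 and 2503 without replicate 2. Il16, a cytokine gene, ranked at 80.9, 89.7 and 75.5 in MC and at 11.2 and 19.4 at E12.5 (difference 1.98 ± 0.32 SD units, SE; limma adjusted p = 0.205). Cebpd, a C/EBP transcription factor, ranked at 98.3, 94.2 and 95.4 in MC and at 54.1 and 73.6 at E12.5. Insm1, a zinc finger factor of neuroendocrine cells, went the other way, at 7.04, 1.60 and 9.36 in MC and 55.3 and 36.4 at E12.5 (difference -1.54 ± 0.31 SD units, SE; limma adjusted p = 0.267). At each of these 3 both E12.5 lists lay apart from the MC lists. They were picked from the members of smallest p, so this separation follows from the choice.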

How the data were processed

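The values are peak lists. The authors' ATAC-seq lists, for which the submitters' processing notes name Trim Galore, Bowtie2, SAMtools, Genrich and mm10, give for each peak the deposited score and a -log10 p. Their H3K27ac lists, with SEACR named in place of Genrich in the same notes, give the deposited total signal and highest signal. Versions and thresholds are not given in the sources used here, and neither are read counts. Sequencing depth is therefore unknown (ATAC-seq lists hold 43205 to 74706 peaks). Scores and signals were ranked only within a list, apart from the lowest total signal of the combined lists.

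Peaks on the autosomes and X were merged across the 8 ATAC-seq lists, and an overlap of 1 bp counted. Gene positions and promoter windows came from RefSeq tables of GRCm38.p6, and strand from the promoter table. A gene end is either end of a protein-coding gene, and 1000 bp was the limit. limma 3.58.1 in R 4.3.3 was fitted to the 8 lists in 1 model and tested on simulated data. At a planted size of 2 it recovered 65.0% (cover) and 58.0% (score rank) of regions for MC against FL and 55.0% and 43.0% for MC against E12.5, over 15788 simulated regions. For planted differences of 1 these shares were 26.0%, 3.00%, 7.00% and 1.00%. Values per library were compared by exact permutation tests. Other steps ran in Python 3.11.15 (scipy 1.17.1, numpy 2.4.6, matplotlib 3.10.9, pandas 2.3.3).

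Same-numbered MC and FL libraries deviated together in score rank (correlations of 0.102 to 0.222 over the always open regions). In cover their correlations were positive but smaller (0.00915 to 0.0654). The labels do not say what a number stands for. Members, gene lists and tests were chosen with earlier results of these data known. Named members are the 10 highest and 5 lowest by their lowest score percentile, the 5 widest, the 5 with the most genes, the 8 highest of each H3K27ac class other than both, the highest per general list and per list of another cell type, the 3 highest per tissue list, the 5 smallest p each way per limma result, those nearest the distance limit, and Actb, Gapdh, Sox9, Col2a1, Sox5, Sox6, Runx2, Hand2, Dlx5, Pitx1, Tbx5 and Shox2; other genes named from the lists were chosen after their values were seen. Promoters were printed for named members with a window, and those of Gli3 and Col11a1 for the tissue lists. Of 17274 windows, 10370 lie at the start in the gene table. Other alternatives were the distance, the overlap, only the peaks above each list's median, the centring and each library left out. Hi-C and 4C data were not used here. Some members that the naming rule covers are not reported here.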

Additional observations from a re-analysis of the deposited data

How the results depend on the processing

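The number of members was 10023 with a limit of 500 bp and 10837 with 2500 bp. It was 9002 where each list had to cover at least 25% of the region, 8156 with only the peaks above each list's median score, and 10319 to 10871 without 1 library. With only the peaks above the median total signal of the combined lists, the shares by H3K27ac class were 57.8% in both, 15.7% in MC alone, 2.97% in FL alone and 23.6% in neither. With 1 signal floor, chosen after seeing the data, they were 75.5%, 5.08%, 5.23% and 14.2%. Without E12.5 replicate 1, also chosen after seeing the data, they were 78.1%, 11.5%, 1.33% and 9.04% of 10871 members, and 12054 genes had a member.

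In the 4 limma results 0 members passed under the alternatives run, with 1 exception: score rank of E14.5 MC against E12.5 without E12.5 replicate 2, where 698 passed, which rests on E12.5 replicate 1 as the only library of its group. With the replicate block 0 members passed in each of the 4 results, and 0 with MC and FL only and the replicate block, a fit added after seeing the data because score ranks of same-numbered MC and FL libraries deviated together. The same-numbered E12.5 and MC libraries correlated at -0.115 to -0.114 in score rank. The difference of named members kept its direction in all 440 refits of 40 differences. The difference in H3K27ac shares of single libraries ranged from -1.14 to 0.52 percentage points with 1 library left out and was 0.045 where the region had to be covered to at least 50%. The difference in median cover ranged from -2.5 to 110 bp, and that in shares of peaks from 1.22 to 5.22 percentage points. With same-numbered libraries as pairs (replicate block) neither passed. Depth is unknown, so a region missing from a list may be below the threshold of its caller in that list.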
